A study of Mus musculus with 6 samples.

Results

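The genes described here carry glucose into the cell, break it down to lactate, export the lactate and store glucose as glycogen. A member was any row of the deposited table whose name field held 1 of 34 chosen symbols. Pkm and Pkm2 are a single gene, so the symbols stand for 33 genes. Of these, 29 had a row among the 31097 rows of the table, and Gpi1, Pfkm, Eno2 and Pkm were not analysed here. Over the 6 libraries, 26 of the 29 reached a mean of at least 0.5 FPKM and were tested. Slc2a3, Aldoc and Pygl did not reach it. FPKM counts fragments per kilobase of a transcript relative to all mapped fragments of the library, so levels of different genes can be set side by side. Aldoa shared its row with the predicted transcript Gm15676, and each other member had a row of its own.

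RNA was sequenced from 3T3-F442A, a mouse preadipocyte line able to become fat cells, named as adipocytes by the labels. There were 3 libraries of the parental line with intact SWELL1 (WT) and 3 of lines in which SWELL1 had been knocked out with CRISPR/Cas9 (SWELL1 KO). All cells grew in RPMI with 10% FBS. SWELL1 (gene symbol Lrrc8a) forms part of the anion channel that opens on cell swelling. The labels call the libraries biological replicates, give no number of KO clones and no differentiation step, and leave the mark D3 in the KO sample names unexplained. That mark, a clone and the genotype cannot be told apart, and p-values here reflect only how these libraries vary. Lrrc8a shared a row with its neighbours, so the table gave no check of the knockout labels.

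Glucose enters through carriers of the Slc2a family and is phosphorylated by hexokinase, which keeps it in the cell. Phosphofructokinase then commits it to glycolysis, and later steps yield pyruvate, which lactate dehydrogenase reduces to lactate. Pyruvate can instead enter mitochondria, where pyruvate dehydrogenase kinases hold back its oxidation. Glucose can also be stored as glycogen, which in fat cells turns over around the time that lipid is laid down.

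Estimated depth was 17.2 to 20.8 M fragments in the WT libraries and 18.3 to 25.9 M in the KO libraries. The KO libraries listed more rows above 0, at 13858 to 14245 against 13005 to 13084. A single row, the clone AC166252.2, took 16.7% to 23.7% of the FPKM sum in KO libraries and 0% to 2.1% in WT libraries. Scaling to a common sum without that row moved the median log2 fold change of all tested rows by 0.11, from -0.07 to 0.04. All 8 preadipocyte and fibroblast markers were tested and stood above 5 FPKM in WT, with a summed level of 6739 to 7581 FPKM in WT and 6160 to 6216 in KO, where 5 fell and 3 rose. Of the adipocyte markers 4 of 5 tested fell (80%, against 36.7% of all tested rows) and none rose. Their sum over 8 rows lay at 277 to 358 FPKM in WT, against 106 to 152 in KO. Fabp4 (mean 159 FPKM in WT and 3.44 in KO) and Lpl (152 and 123, not called) held most of that sum. Adipoq, Plin1, Cidec, Pparg and Cfd had WT means of 1.56, 1.01, 0.65, 1.83 and 0.85 FPKM, and Lep was listed at 0. The part of these markers in the results below was not tested. Myod1, Myog and Ckm (skeletal muscle), Epcam (epithelium), Csf1r (macrophages) and Snap25 (neurons) were listed at 0 in every library. The other markers of these cell types were above 0 in some library or had no row. Ptprc (macrophages) and Rbfox3 (neurons), for example, were at 0 in WT and above 0 in every KO library. Summed over their lists, markers of macrophages, endothelium, epithelium, muscle and neurons never exceeded 2.45 FPKM in a library, although Lyz2 fell and Vwf and Krt8 rose at these low levels. In bulk RNA, fewer cells of a type and less RNA per cell cannot be told apart.

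Promoter sequences are shown for 6 members: the glucose carrier Slc2a1 and the hexokinase Hk2, which fell the most at the entry of the pathway, and the pairs Ldha with Ldhb and Pdk1 with Pdk4, whose partners moved in opposite directions. They run from 250 bases before to 50 bases after a RefSeq start (GRCm38.p6), 5′ to 3′ on the gene's strand. Their positions are chr4:119108495-119108794 (Slc2a1, plus strand), chr6:82774405-82774704 (Hk2, minus), chr7:46845554-46845853 (Ldha, plus), chr6:142507908-142508207 (Ldhb, minus), chr2:71872974-71873273 (Pdk1, plus) and chr6:5496229-5496528 (Pdk4, minus). Ldha and Pdk1 each had 2 windows, and the more upstream one is shown. Capitals mark ACGTG and GCGTG on either strand, the core pentamers recognised by hypoxia-inducible factors. A palindromic CACGTG counts on both strands.
Slc2a1: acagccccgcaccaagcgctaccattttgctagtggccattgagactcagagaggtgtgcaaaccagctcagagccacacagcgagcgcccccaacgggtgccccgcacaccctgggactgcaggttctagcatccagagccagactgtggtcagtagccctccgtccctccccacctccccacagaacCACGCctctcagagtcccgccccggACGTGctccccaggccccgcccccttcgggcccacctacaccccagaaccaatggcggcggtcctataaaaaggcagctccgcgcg
Hk2: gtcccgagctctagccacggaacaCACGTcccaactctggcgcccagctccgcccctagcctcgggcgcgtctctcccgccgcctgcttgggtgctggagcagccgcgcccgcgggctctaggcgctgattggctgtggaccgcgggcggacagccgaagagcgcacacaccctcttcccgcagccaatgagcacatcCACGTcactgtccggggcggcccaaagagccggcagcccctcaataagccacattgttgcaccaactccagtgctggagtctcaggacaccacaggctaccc
Ldha: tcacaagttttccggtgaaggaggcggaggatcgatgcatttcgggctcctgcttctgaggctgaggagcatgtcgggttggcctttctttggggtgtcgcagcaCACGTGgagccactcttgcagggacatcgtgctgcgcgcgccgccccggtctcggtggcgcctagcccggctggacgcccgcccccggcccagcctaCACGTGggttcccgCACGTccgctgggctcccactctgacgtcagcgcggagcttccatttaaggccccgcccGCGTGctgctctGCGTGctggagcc
Ldhb: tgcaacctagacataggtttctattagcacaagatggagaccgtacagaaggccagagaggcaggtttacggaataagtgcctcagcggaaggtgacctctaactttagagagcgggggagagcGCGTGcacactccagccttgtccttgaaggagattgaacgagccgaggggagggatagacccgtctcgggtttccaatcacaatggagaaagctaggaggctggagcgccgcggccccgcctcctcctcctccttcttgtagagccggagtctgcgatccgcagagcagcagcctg
Pdk1: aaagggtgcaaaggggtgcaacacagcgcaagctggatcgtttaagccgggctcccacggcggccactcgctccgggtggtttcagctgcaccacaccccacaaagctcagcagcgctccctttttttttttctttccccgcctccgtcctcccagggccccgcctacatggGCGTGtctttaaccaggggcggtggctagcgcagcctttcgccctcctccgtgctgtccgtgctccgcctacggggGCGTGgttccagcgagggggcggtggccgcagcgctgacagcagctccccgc
Pdk4: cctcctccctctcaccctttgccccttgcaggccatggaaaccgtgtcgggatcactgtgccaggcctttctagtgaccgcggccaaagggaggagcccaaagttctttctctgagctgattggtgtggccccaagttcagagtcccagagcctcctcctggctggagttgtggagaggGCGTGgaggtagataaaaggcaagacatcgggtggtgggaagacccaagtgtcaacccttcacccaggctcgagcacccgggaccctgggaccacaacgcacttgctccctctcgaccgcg

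The Ldha window held ACGTG 5 times and GCGTG 2 times, counting both strands, whereas the Ldhb window held no ACGTG and a single GCGTG. Hk2 had 2 matches to ACGTG and none to GCGTG, and Slc2a1 had 1 of each. The Pdk1 and Pdk4 windows shown held GCGTG alone, 2 times and 1 time. RefSeq starts were matched for 28 of the 29 members, with 39 windows in all, and Slc2a3 was not among them. ACGTG lay in 20 of the 39 windows (51.3%), against 19.6% of all 32851 windows and 25.8% of the 8557 windows of tested genes. GCGTG lay in 61.5% of the member windows, against 32.4% of all windows and 51.9% of those of tested genes. Member windows had a median GC content of 63.3%, all windows 52.7% and those of tested genes 61%. Among members that fell, 15 of 25 windows (60%) held ACGTG, against 28.9% of the windows of all genes lower in KO. Among members that rose 1 of 5 windows (20%) did, in Hk1, against 23.5% for all genes higher in KO. For GCGTG the order was the other way, with 14 of 25 windows (56%) of members that fell and 4 of 5 (80%) of those that rose. Of the windows of all genes lower in KO 54.1% held GCGTG, and of those higher in KO 49.0%. The 56% lay near its background, and the 80% rests on 5 windows. Tpi1, Gys1 and Gbe1, which fell, had neither pentamer in their windows. A match to 5 letters is a description of the sequence and not a binding site.

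Most of the tested members were lower in SWELL1 KO than in WT. The members were chosen with earlier results of these data known, so the shares below describe this list only. Of the 26 tested members, 23 (88.5%) passed limma's test at an adjusted p under 0.05, where 65.2% of all 10515 tested rows passed. In the KO libraries 19 members were lower (73.1%, against 36.7% of all tested rows) and 4 were higher (15.4%, against 28.5%). The 4 that rose were Hk1, Pfkfb4, Ldhb and Pdk4. Of the members that fell, 12 did so at least 2-fold in mean FPKM (10.9% of all tested rows) and 5 at least 5-fold (2.66%). The 5 were Slc2a1, Hk2, Pfkfb3, Gys1 and Ppp1r3c. Pdk4 was the member that rose at least 2-fold, as did 9.28% of all tested rows. The 3 KO values of 23 members lay wholly above or wholly below the 3 WT values, where 71.8% of all tested rows did so (40.3% lower and 31.5% higher in KO). The median log2 fold change was -0.88 over the tested members and -0.07 over all tested rows. Log2 fold changes here are KO minus WT on log2(FPKM + 0.5), which understates the change of low genes.

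**Figure D1:**
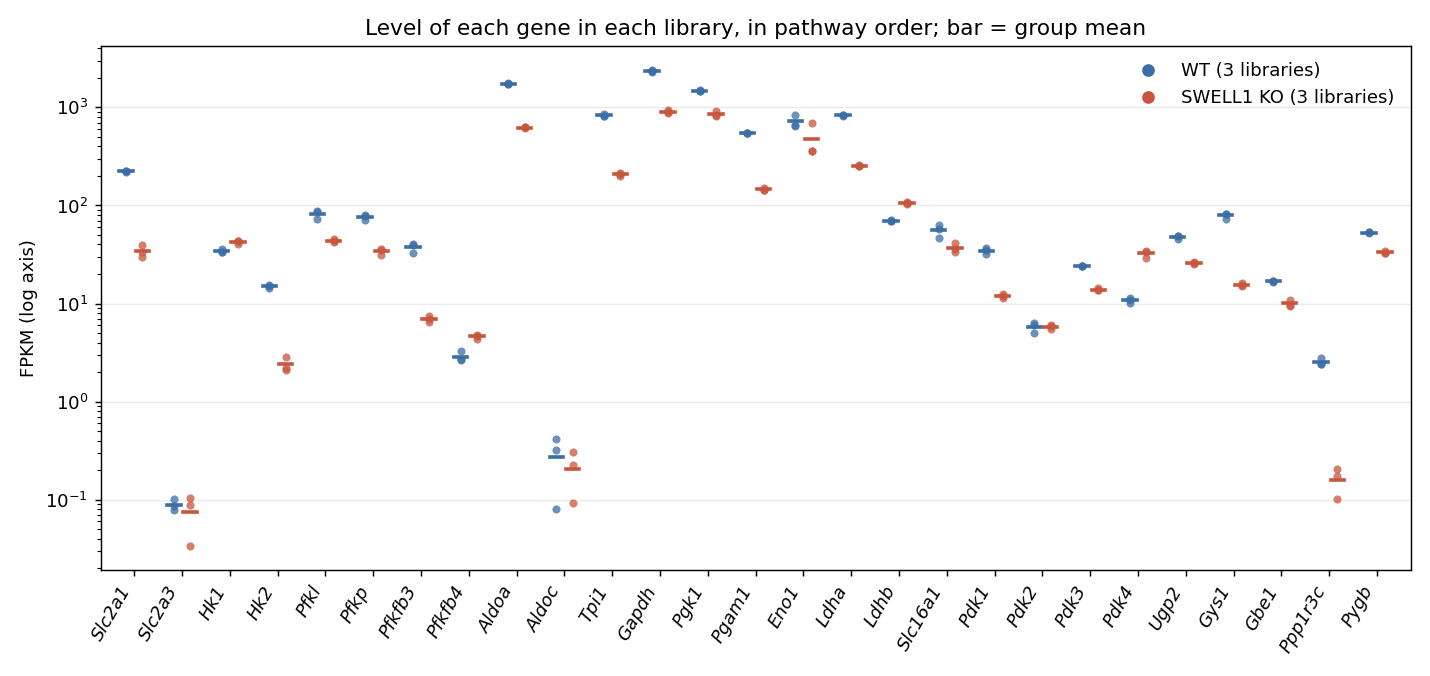
The plot gives the FPKM of each member in each library on a log axis, in pathway order, with WT in blue, SWELL1 KO in red and a bar at the group mean. The libraries of a group lie close together for most genes, Eno1 has 1 KO library at 700.4 FPKM beside 2 near 360, and Pygl (0 throughout) and Slc16a3 (0 in some libraries) are not drawn.

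Slc2a1, the main glucose carrier of most dividing cells (chromosome 4, 119108711 to 119137983, plus strand), measured 224, 217 and 225 FPKM across WT replicates 1, 2 and 3. Across SWELL1 KO replicates 1, 2 and 3 it measured 29.7, 33.6 and 39.6 FPKM. The groups lay far apart, and the mean fell 6.47-fold (log2 fold change -2.69, 95% interval -2.94 to -2.43, adjusted p = 9.58e-06). Slc2a3, a high-affinity carrier best known from neurons, stayed between 0.0333 and 0.103 FPKM in the 6 libraries, which is about 3.98 to 14.3 fragments if its longest transcript was the one expressed. It was too low to test. Slc2a1 made up 99.96% of the summed FPKM of the pair in WT and 99.79% in KO, and Slc2a3 was a trace of the pair in both groups.

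Hexokinase had 2 measured genes, and they moved apart. Hk2, the inducible hexokinase of insulin-sensitive and proliferating cells (chromosome 6, 82725025 to 82774454, minus strand), stood at 15.1, 15.5 and 14.4 FPKM in WT, against 2.20, 2.12 and 2.88 in KO. Every KO library was far below every WT library, and the mean fell 6.27-fold (log2 fold change -2.43, 95% interval -2.70 to -2.16, adjusted p = 1.56e-05). Hk1, the widely expressed housekeeping hexokinase (chromosome 10, 62268855 to 62379908), was at 36.1, 33.8 and 33.3 FPKM in WT, against 43.2, 40.7 and 43.0 in KO. It rose 1.23-fold (log2 fold change 0.29, 95% interval 0.18 to 0.41, adjusted p = 0.00247), with no overlap between groups. The share of Hk2 in the summed hexokinase FPKM was 30.4% ± 0.98 in WT and 5.35% ± 0.79 in KO (SD, n = 3). These shares do not depend on the scaling between libraries, and their groups did not overlap (exact two-sided permutation p = 0.1, the smallest that 3 against 3 libraries allow, and 0.122 after adjustment over 11 share tests). The sum of both genes was 49.5 ± 1.76 FPKM in WT and 44.7 ± 1.69 in KO. Summed hexokinase mRNA thus differed 1.11-fold where Hk2 alone differed 6.27-fold. The ratio of Hk2 to Slc2a1 within a library ran from 0.0642 to 0.0715 in WT and from 0.0631 to 0.0741 in KO, with the groups overlapping.

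Both measured phosphofructokinase genes fell, by less than Hk2. Pfkp, the platelet-type subunit (chromosome 13, 6579768 to 6648777), was at 70.7, 79.7 and 78.4 FPKM in WT, against 31.3, 36.0 and 35.3 in KO, a fall of 2.23-fold (adjusted p = 5.52e-05). Pfkl, the liver-type subunit (chromosome 10, 77986947 to 78010083), was at 72.5, 87.7 and 84.7 FPKM in WT, against 43.6, 42.3 and 45.5 in KO, a fall of 1.86-fold (adjusted p = 0.000198). Subunits of these types assemble into mixed tetramers. Their mRNAs were close to equal in WT, where Pfkl made up 51.6% ± 0.91 of the sum, and in KO it made up 56.2% ± 2.09 (exact permutation p = 0.1, adjusted 0.122). These shares did not overlap between groups. An exon overlap with the opposite-strand gene Pitrm1 covers 5.58% of the Pfkp exon bases, and strand was not known to be kept. The summed level went from 158 ± 13.0 to 78.0 ± 2.96 FPKM.

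Phosphofructokinase is switched on by fructose 2,6-bisphosphate, whose level is set by the PFKFB enzymes, and their 2 member genes moved in opposite directions. Pfkfb3, an isoform with strong kinase over phosphatase activity (chromosome 2, 11471433 to 11554077), stood at 40.3, 39.2 and 33.1 FPKM in WT, against 6.90, 6.43 and 7.40 in KO. The mean fell 5.43-fold (log2 fold change -2.36, 95% interval -2.59 to -2.13, adjusted p = 1.03e-05). Pfkfb4, another isoform of the family (chromosome 9, 108991778 to 109032228) stood at 3.28, 2.70 and 2.65 FPKM in WT, against 4.67, 4.38 and 4.78 in KO, and rose 1.60-fold (adjusted p = 0.00184). The rise of Pfkfb4 was small in FPKM beside the fall of Pfkfb3. Pfkfb4 made up 7.13% ± 0.60 of the summed FPKM of the pair in WT and 40.1% ± 0.72 in KO (exact permutation p = 0.1, adjusted 0.122). The sum itself went from 40.4 ± 4.13 to 11.5 ± 0.69 FPKM. Pfkfb1 (mean 2.98 FPKM in WT and 2.77 in KO) and Pfkfb2 (1.17 and 2.58) are not members and are not in this sum.

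The enzymes from aldolase to lactate dehydrogenase are among the most abundant mRNAs of the cell. Gapdh ranked 25 to 27 among all rows in the WT libraries and 88 to 93 in the KO libraries. The summed level of 7 of these genes (Aldoa, Tpi1, Gapdh, Pgk1, Pgam1, Eno1 and Ldha) was 8529 ± 70.3 FPKM in WT and 3455 ± 267 in KO. That was 1.69% ± 0.04 of the FPKM sum of a WT library and 0.61% ± 0.05 of that of a KO library. With AC166252.2 left out of the sum, the shares were 1.71% and 0.75%. The groups did not overlap on either scale.

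Aldoa, which splits fructose 1,6-bisphosphate (chromosome 7, 126795234 to 126800751), was at 1770.3, 1715 and 1739 FPKM in WT, against 624, 612 and 625 in KO. It fell 2.81-fold (adjusted p = 1.52e-06), and its libraries hardly differed within a group. Aldoc, the brain-type aldolase, lay between 0.0808 and 0.414 FPKM over all 6 libraries, so that Aldoa supplied at least 99.95% of the aldolase FPKM in every library. Tpi1, which interconverts the 2 triose phosphates (chromosome 6, 124810586 to 124814296), stood at 846, 826 and 822 FPKM in WT, against 216, 199.5 and 211 in KO, a fall of 3.98-fold (log2 fold change -1.99, 95% interval -2.09 to -1.90, adjusted p = 1.68e-06). Its fold change of mean FPKM was the largest of these 7 genes.

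Gapdh, which oxidises glyceraldehyde 3-phosphate and is often used as a reference gene (chromosome 6, 125161715 to 125166467), was at 2419, 2313 and 2374 FPKM in WT, against 898, 934 and 868 in KO. It fell 2.63-fold (log2 fold change -1.40, 95% interval -1.49 to -1.30, adjusted p = 4.07e-06). Pgk1, the first enzyme of glycolysis to regain ATP (chromosome X, 106187100 to 106203699), was at 1498, 1467 and 1486 FPKM in WT, against 812, 914 and 832 in KO. Its fall of 1.74-fold was smaller than that of its neighbours (log2 fold change -0.80, 95% interval -0.92 to -0.68, adjusted p = 4.82e-05). The ratio of Pgk1 to Gapdh within a library was 0.63 ± 0.01 in WT and 0.95 ± 0.04 in KO, with no overlap. Pgam1, which moves the phosphate of phosphoglycerate (chromosome 19, 41911923 to 41918660), was at 554, 553 and 552 FPKM in WT, against 145, 150.3 and 143 in KO, a fall of 3.78-fold (adjusted p = 9.92e-07).

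Eno1, the enolase of most tissues (chromosome 4, 150236721 to 150248879), was the glycolytic enzyme whose libraries disagreed. Across WT replicates 1, 2 and 3 it measured 669, 840.0 and 649 FPKM, against 357, 700.4 and 359.6 across the KO replicates in the same order. KO replicate 2 lay inside the WT range, and the gene did not pass the test (log2 fold change -0.67, 95% interval -1.38 to 0.03, adjusted p = 0.0836). Without KO replicate 2 it passed (log2 fold change -0.99, adjusted p = 0.00217).

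Several of these genes have near-identical copies, mostly processed pseudogenes, and how reads that fit more than 1 place were handled was not given in the sources used. Copies were counted at 95% identity or more over at least 300 bases. Gapdh had 76 such copies, 52 of them with a row (51 rows, since Gm3200 and Gm7336 share 1), and these rows together held 92.9% of the level of the Gapdh row in WT and 92.8% in KO. The copies fell 2.64-fold and Gapdh with its copies 2.63-fold, so the fold was alike with and without them. Pgam1-ps2, the single copy of Pgam1, held 44.1% and 44.5% of its level, and Pgam1 with it fell 3.77-fold. The copies of Pgk1 held 16.5% in WT and 16.1% in KO. Tpi1 had 1 and Ldha 2 such copies, none with a row. The rows for the enolase copies Eno1b (listed as Gm5506) and Gm4735 summed to 534, 427 and 425 FPKM in WT, against 289, 254 and 237 in KO, without overlap. Eno1 with both copies came to 1203, 1267 and 1074 FPKM in WT, against 645, 954 and 596 in KO, a 1.61-fold lower mean with groups that did not overlap. FPKM of a gene with copies is uncertain in level for this reason.

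**Figure D2:**
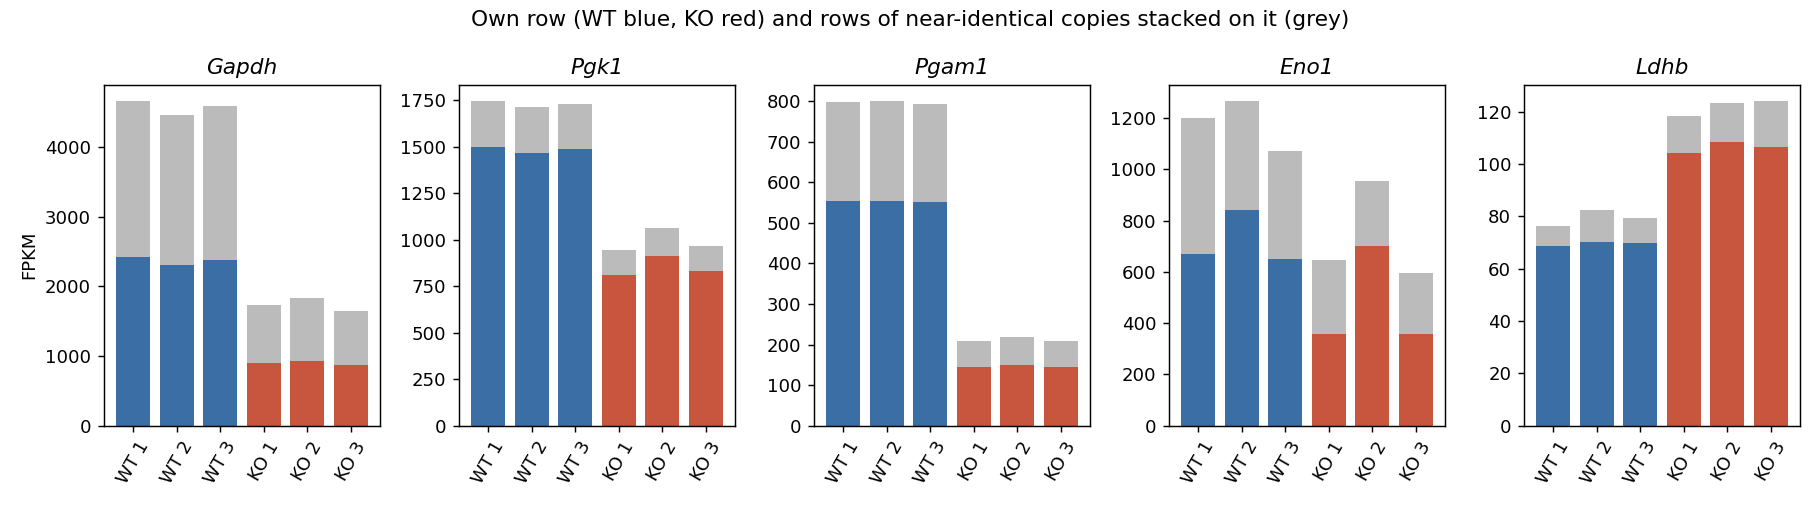
The bars show, per library, the FPKM of each gene with near-identical copies that have a row of their own, in blue (WT) or red (SWELL1 KO), with the summed FPKM of those copies stacked on it in grey. Gapdh, Pgk1, Pgam1 and Ldhb differ in the same direction with and without the copies, whereas Eno1 overlaps between WT and KO until its copies are added.

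Lactate dehydrogenase is a tetramer of A and B subunits, and the A subunit is the one usually linked to making lactate. Ldha (chromosome 7, 46841475 to 46855627) stood at 826, 840.5 and 828 FPKM in WT, against 253, 252.9 and 257 in KO. It fell 3.27-fold (log2 fold change -1.71, 95% interval -1.77 to -1.64, adjusted p = 9.92e-07). Ldhb (chromosome 6, 142490249 to 142507957) stood at 68.6, 70.3 and 70.0 FPKM in WT, against 104, 108 and 107 in KO, and rose 1.53-fold (log2 fold change 0.61, 95% interval 0.53 to 0.69, adjusted p = 2.65e-05). The 2 subunits thus moved against each other in all libraries. Ldhb made up 7.73% ± 0.06 of the summed FPKM in WT and 29.5% ± 0.44 in KO (exact permutation p = 0.1, adjusted 0.122). With its copy Gm5514 added, Ldhb was 1.53-fold higher in KO as well. The sum of Ldha and Ldhb went from 901 ± 8.54 to 361 ± 2.99 FPKM.

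Lactate leaves through the monocarboxylate carriers MCT1 (Slc16a1) and MCT4 (Slc16a3), which reach the cell surface with the partner proteins basigin (Bsg) and embigin (Emb). Slc16a1 (chromosome 3, 104638668 to 104658462) was at 57.0, 46.2 and 63.8 FPKM in WT, against 36.3, 41.7 and 33.4 in KO. The groups came close to each other. The mean fell from 55.7 ± 8.88 to 37.1 ± 4.19 FPKM (log2 fold change -0.57, 95% interval -0.92 to -0.23, adjusted p = 0.0126). With quantile-normalized values it missed the threshold (log2 fold change -0.39, adjusted p = 0.0515). Slc16a3, the carrier of highly glycolytic cells, was listed at 0, 4.33 and 0 FPKM in WT, against 0, 0.497 and 1.71 in KO. An exact 0 beside such values can be a failed estimate, and the gene gave no readable difference (adjusted p = 0.973). Bsg, which is not one of the 29 genes, stood at 1697, 1594 and 1640.3 FPKM in WT, against 574, 599 and 557 in KO. It fell 2.85-fold (adjusted p = 4.07e-06). Emb was at 173, 171 and 214 FPKM in WT, against 272, 239.7 and 284 in KO, and rose 1.43-fold (adjusted p = 0.00754).

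**Figure D3:**
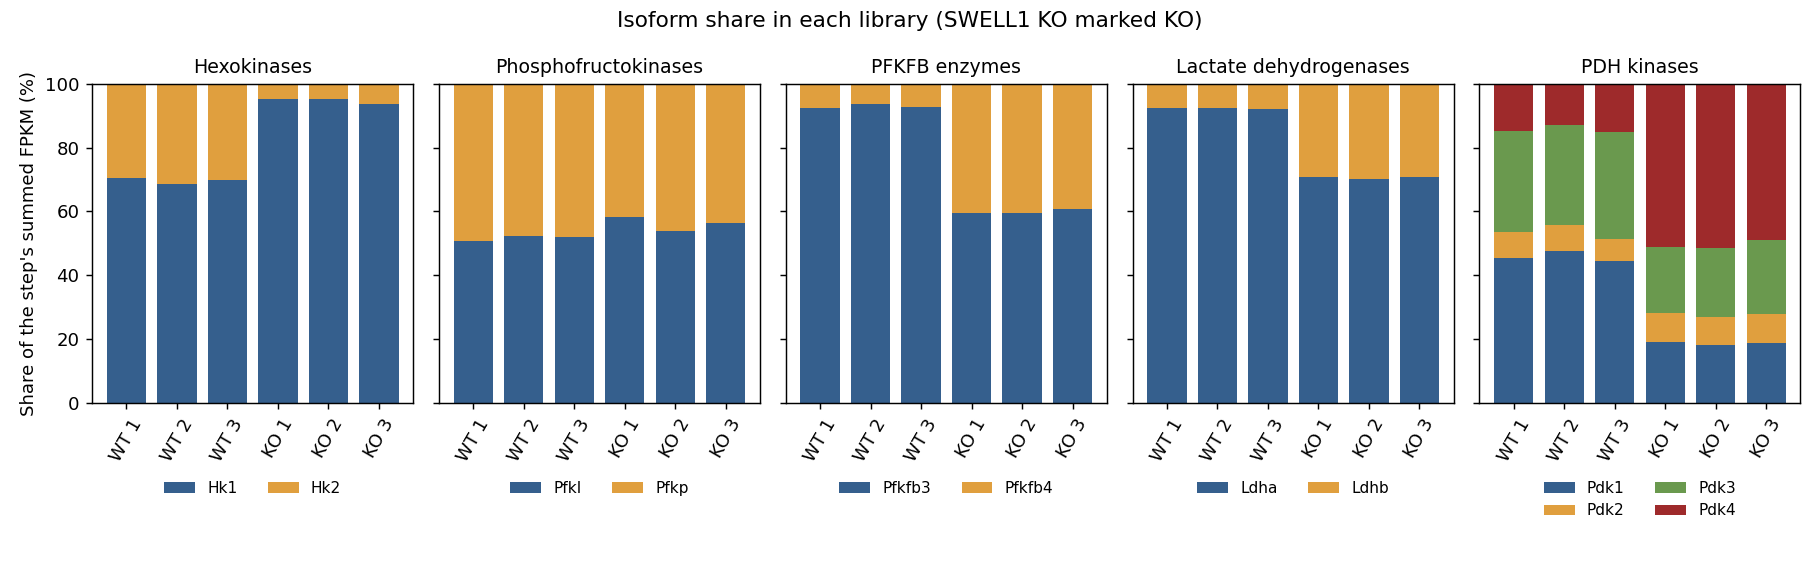
The stacked bars give each isoform's percent of the summed FPKM of a step's member genes, per WT and SWELL1 KO (KO) library, with isoforms in separate colours. Pfkfb1 and Pfkfb2 are not members and are not in the sum. The shares of Hk2 (30.4% to 5.35%), Ldhb (7.73% to 29.5%), Pfkfb4 (7.13% to 40.1%) and Pdk4 (14.3% to 50.6%) differ between groups without overlap. The share of Pfkl (51.6% to 56.2%) also differs without overlap but by less, so that Pfkl and Pfkp stay near each other.

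The pyruvate dehydrogenase kinases phosphorylate pyruvate dehydrogenase and so limit the oxidation of pyruvate, and in KO Pdk4 and Pdk1 exchanged places in the order of the 4 genes. Pdk1, a target of hypoxia-inducible factor (chromosome 2, 71873224 to 71903858), stood at 34.8, 37.0 and 31.9 FPKM in WT, against 12.6, 12.0 and 11.3 in KO, a fall of 2.89-fold (adjusted p = 1.95e-05). Pdk3, on the X chromosome (93764607 to 93832201), was at 24.3, 24.2 and 23.9 FPKM in WT, against 13.6, 14.3 and 13.7 in KO, a fall of 1.74-fold (adjusted p = 2.31e-05). Pdk1 and Pdk3 were the 2 leading kinases of the WT libraries. Pdk4, the isoform known to rise in fasting and with fatty acid use (chromosome 6, 5483351 to 5496309), was at 11.3, 10.0 and 10.9 FPKM in WT, against 33.9, 34.0 and 29.4 in KO. It rose 3.02-fold (log2 fold change 1.55, 95% interval 1.36 to 1.74, adjusted p = 2.31e-05). Pdk2 did not pass the test, at 6.01, 6.28 and 4.99 FPKM in WT, against 6.05, 5.92 and 5.47 in KO (log2 fold change 0.02, 95% interval -0.22 to 0.25, adjusted p = 0.886).

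In WT the order of the kinases was Pdk1, Pdk3, Pdk4 and Pdk2, with mean shares of 45.9%, 32.1%, 14.3% and 7.64% of their summed FPKM. In KO it was Pdk4, Pdk3, Pdk1 and Pdk2, at 50.6%, 21.7%, 18.7% and 9.07%. The ranges of neighbours in either order did not overlap. Each of the 4 shares separated the groups (exact permutation p = 0.1, adjusted 0.122). The ratio of Pdk4 to Pdk1 was 0.31 ± 0.04 in WT and 2.71 ± 0.12 in KO. The sum of all 4 went from 75.2 ± 3.06 to 64.1 ± 3.69 FPKM, a difference of 1.17-fold, so the makeup of the family differed far more than its total.

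**Figure D4:**
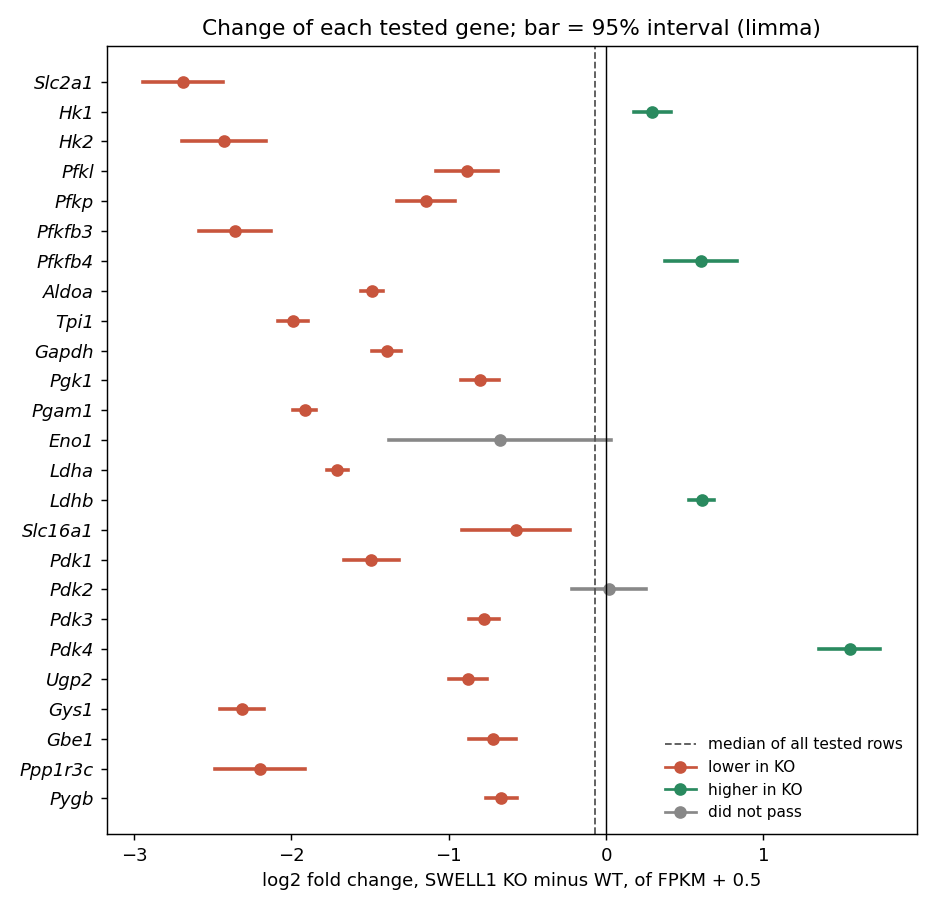
The plot shows the log2 fold change (SWELL1 KO minus WT, on FPKM + 0.5) of the tested genes other than Slc16a3 with the 95% interval from limma. The solid line marks 0 and the dashed line the median of all tested rows at -0.07. Of the genes drawn, 19 lie below 0 with an adjusted p under 0.05, 4 lie above it (Hk1, Pfkfb4, Ldhb and Pdk4), and Eno1 and Pdk2 did not pass.

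All 5 tested glycogen members fell, as did 36.7% of all tested rows, whereas the further glycogen genes given below moved in both directions. Ugp2, which makes the UDP-glucose that glycogen is built from (chromosome 11, 21321138 to 21371201), was at 49.1, 45.1 and 48.8 FPKM in WT, against 26.4, 25.1 and 25.6 in KO, a fall of 1.85-fold (adjusted p = 3.07e-05). Gys1, the glycogen synthase of tissues other than liver (chromosome 7, 45434844 to 45456619), stood at 82.1, 81.6 and 73.4 FPKM in WT, against 15.4, 15.1 and 16.0 in KO. It fell 5.10-fold (log2 fold change -2.31, 95% interval -2.45 to -2.17, adjusted p = 3.21e-06). Exons of the opposite-strand gene Ruvbl2 overlap 6.47% of its exon bases. Gbe1, the branching enzyme (chromosome 16, 70313949 to 70569716), was at 16.9, 16.4 and 17.1 FPKM in WT, against 9.46, 9.74 and 10.8 in KO, a fall of 1.68-fold (adjusted p = 0.000153).

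Ppp1r3c, which brings protein phosphatase 1 to glycogen and so favours synthesis (chromosome 19, 36731731 to 36736653), was at 2.40, 2.77 and 2.42 FPKM in WT, against 0.175, 0.101 and 0.203 in KO. The ratio of means was 15.8 and the log2 fold change on the tested scale was -2.20 (95% interval -2.49 to -1.91, adjusted p = 2.78e-05). Its lowest value corresponded to about 7.12 fragments, so the ratio is imprecise. Pygb, the brain-type phosphorylase that releases glucose 1-phosphate from glycogen (chromosome 2, 150786735 to 150831758), was at 51.9, 53.0 and 54.0 FPKM in WT, against 34.6, 32.6 and 32.6 in KO, a fall of 1.59-fold (adjusted p = 4.55e-05). Pygl, the liver-type phosphorylase, was listed at 0 in every library. Synthase fell more than phosphorylase or branching enzyme: the ratio of Gys1 to Pygb was 1.49 ± 0.12 in WT and 0.47 ± 0.02 in KO, and that of Gys1 to Gbe1 was 4.71 ± 0.36 and 1.55 ± 0.07. Neither ratio overlapped between groups.

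Other genes of these pathways, which are not among the 29, moved in both directions. Of 103 listed, 92 had a row and 58 were tested: 16 were higher, 24 lower and 18 did not pass, with a median log2 fold change of -0.20. The shares, 27.6% higher and 41.4% lower, lay near the 28.5% and 36.7% of all tested rows. Among the other glucose carriers 2 of 3 tested fell (66.7%), and Slc2a10 fell from 6.34 ± 0.43 to 2.94 ± 0.21 FPKM (adjusted p = 0.000112). Of 11 further glycolytic genes, 3 rose and 2 fell (45.5% called). Pfkfb2 rose from 1.17 ± 0.14 to 2.58 ± 0.05 FPKM (adjusted p = 0.000344). The row 9630033F20Rik, an older name of the fructose bisphosphatase Tigar, fell from 4.66 ± 0.46 to 2.00 ± 0.21 (adjusted p = 0.000262). Gpd1, which draws triose phosphate towards glycerol 3-phosphate, fell from 1.26 ± 0.01 to 0.13 ± 0.05 FPKM (adjusted p = 0.000127). Ldhd, the D-lactate dehydrogenase, was listed at 0, 2.13 and 0 FPKM in WT, against 3.26, 4.72 and 4.84 in KO (adjusted p = 0.0213). As for Slc16a3, an exact 0 beside such values can be a failed estimate.

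Of 12 tested genes of pyruvate entry and oxidation, 7 fell (58.3%, against 36.7% of all tested rows) and 2 rose (16.7%, against 28.5%). In both directions together 75% were called, against 65.2% of all tested rows. Pdp1, a phosphatase that reverses the pyruvate dehydrogenase kinases, rose 2.92-fold from 10.3 ± 0.75 to 30.1 ± 1.59 FPKM (adjusted p = 1.72e-05). Pdp2, the other such phosphatase, fell 1.73-fold from 4.11 to 2.37 FPKM (adjusted p = 0.00194). Pdp1 and Pdk4, which act against each other on the same enzyme, were thus both about 3-fold higher in mean FPKM. Pcx, pyruvate carboxylase, fell from 6.01 ± 0.68 to 2.41 ± 0.38 FPKM (adjusted p = 0.000439). Of the mitochondrial pyruvate carrier subunits, Mpc2 rose from 17.9 ± 2.55 to 26.5 ± 0.06 FPKM (adjusted p = 0.00334), and Mpc1 was at 24.5 ± 1.04 and 25.6 ± 1.88 (adjusted p = 0.461).

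Of 18 further glycogen genes tested, 7 rose and 6 fell, and the 72.2% called lay near the 65.2% of all tested rows. Gyg, the glycogenin that primes the granule, rose from 17.0 ± 0.33 to 22.5 ± 0.80 FPKM (adjusted p = 0.000474). Phka1, a regulatory subunit of phosphorylase kinase, rose from 1.86, 2.28 and 1.91 FPKM in WT to 4.57, 4.65 and 4.54 in KO (adjusted p = 0.000136), and Pgm2l1 from 0.45 ± 0.02 to 2.51 ± 0.06 (adjusted p = 2.41e-05). The row named Pgm2 fell from 75.3 ± 1.24 to 32.1 ± 0.45 FPKM (adjusted p = 3.98e-06), and since the symbols Pgm1 and Pgm2 were exchanged between annotation releases it is given by the symbol of the table. Epm2a, the glycogen phosphatase laforin, fell from 1.80 ± 0.21 to 0.12 ± 0.03 FPKM (adjusted p = 6.02e-05). The phosphatase-targeting subunit Ppp1r3d fell from 1.17 ± 0.19 to 0.39 ± 0.05 (adjusted p = 0.00151). Ppp1r3b, of the same family, was at 7.05, 6.41 and 6.60 FPKM in WT and listed at 0 in all 3 KO libraries (adjusted p = 2.14e-06). G6pc3, a widely expressed glucose 6-phosphatase, was at 5.25, 3.85 and 3.82 FPKM in WT and likewise listed at 0 in KO (adjusted p = 1.44e-05). For Ppp1r3b and G6pc3 the exact 0 in KO can also be a failed estimate. The row shared by Ppp1r3f and Ccdc22 rose from 6.75 ± 0.50 to 14.8 ± 0.68 FPKM (adjusted p = 4.98e-05).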

How the data were processed

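RNA of 3 WT and 3 SWELL1 KO libraries of 3T3-F442A cells was used. TopHat and Cufflinks 2.02 had been run on GRCm38, per the submitters' processing notes. The authors deposited 1 table of a value per row and library, taken to be FPKM from the use of Cufflinks and from the values; no source used here gave the settings, annotation release or strandedness. Values were used as deposited. Depth was estimated from 1183 long single-transcript genes, of which 384 to 488 were above 0 in a library. For each of those, the depth at which its FPKM would equal a single fragment was computed. The most frequent such depth was taken. The 10515 rows whose mean reached 0.5 FPKM were tested by limma 3.58.1 (R 4.3.3) after taking log2(FPKM + 0.5) (mean-variance trend, two-sided, Benjamini-Hochberg over all tested rows, threshold 0.05). The test was tried on simulated data of 10515 rows, in which only a small part of the rows was changed. It recovered 50.7% of 1.5-fold changes, 71.6% of 2-fold changes and 92.4% of 4-fold changes, with 4.67% false among its calls. In the real comparison 65.2% of rows passed, so these rates need not hold there.

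Isoform shares were computed per library and compared by an exact two-sided permutation test, adjusted over 11 tests. Gene positions are from GENCODE (GRCm38). Copies were found with BLAST 2.17.0 (95% identity, 300 bases, 50% of the copy). Tables and plots were made in Python 3.11.15 (pandas 2.3.3, numpy 2.4.6, matplotlib 3.10.9). Members and gene lists were chosen with earlier results of these data known. The genes named are all members, and of the other pathway genes those past the threshold with at least a 2-fold change of mean FPKM and Bsg, Emb, Gyg, Mpc1 and Mpc2. Of the genes the rule names, 1 is not reported here. Pfkfb1, Pdp2, G6pdx, Pgls, Rpia, Rpe, Taldo1, Tkt, Txnip and Mlxip fall outside the rule and were chosen after their values were seen, to complete their groups. The alternatives tried covered the pseudocount, the filter, the scaling, the variance model, a block by replicate number and each library left out.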

Additional observations from a re-analysis of the deposited data

How the results depend on the processing

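Over 15 alternatives, 18 to 20 members were lower and 4 higher in KO. Of 389 values of single members under an alternative, 382 kept their direction and their side of the threshold. Slc16a1 lost its call with quantile normalization (-0.39, adjusted p = 0.0515, and 0.0048 to 0.0515 over its alternatives). Eno1 gained a call without SWELL1 KO replicate 2 (-0.99, adjusted p = 0.00217, where the alternatives reached up to 0.212). Among these values direction turned for the uncalled genes Slc16a3, to 0.43 with a pseudocount of 0.1 and 0.48 without SWELL1 KO replicate 1 (range with 1 library left out -0.59 to 0.48), and Pdk2, to -0.075 without WT replicate 3 and -0.010 without SWELL1 KO replicate 1 (range -0.075 to 0.078). The cause was not tested. With 1 library left out, 6303 to 6512 rows were called, 2716 to 2870 higher and 3553 to 3706 lower, with 19 to 20 members lower.

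Same-numbered libraries did not deviate together over all tested rows (correlations of their deviations 0.0034, 0.012 and -0.093). No pairing by number was seen, but such correlations cannot show that there was none. With the replicate number as a block, 6534 rows and 20 members lower were called, and Eno1 passed (adjusted p = 0.0243). Slc16a3 had no value without WT replicate 2, where its mean was under 0.5 FPKM. With rows of 1 name only, the aldolase share could not be computed because Aldoa shares its row. FPKM hold no counts, so values under 1 FPKM rest on few fragments, and 3 libraries per group cannot give an exact p under 0.1.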

Other observations

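Of 7 tested genes of the pentose phosphate pathway, which branches from glycolysis after hexokinase and yields NADPH, 3 rose and 2 fell, so that 71.4% were called, near the 65.2% of all tested rows. Pgd, the second of its NADPH-yielding dehydrogenases, was at 24.9, 22.7 and 24.8 FPKM in WT, against 62.7, 65.5 and 65.3 in KO, a rise of 2.67-fold (adjusted p = 7.34e-06). G6pdx, the first enzyme of the branch, rose from 36.7 ± 2.25 to 52.9 ± 0.30 FPKM (adjusted p = 0.000295). Pgls, in a row shared with Fam129c, rose from 60.8 to 84.3 FPKM (adjusted p = 0.000207). These 3 genes form the oxidative arm. In the non-oxidative arm Rpia fell from 8.36 to 5.04 FPKM (adjusted p = 0.000153) and Rpe from 21.2 to 15.5 (adjusted p = 0.00443), while Taldo1 was at 44.1 and 50.3 FPKM (adjusted p = 0.339) and Tkt, in a row shared with a microRNA, at 187 and 217 (adjusted p = 0.45).

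Of 8 listed glycolysis regulators and glucose-responsive genes, 6 had a row and 4 were tested. All 4 fell, as did 36.7% of all tested rows. Hif1a, the oxygen-regulated subunit of hypoxia-inducible factor, was at 162, 213 and 170.4 FPKM in WT, against 58.0, 62.0 and 64.7 in KO, a fall of 2.95-fold (adjusted p = 7.95e-05). Arrdc4 and Txnip are arrestin-family genes induced by glucose. Arrdc4 fell from 97.4 ± 6.79 to 26.7 ± 2.90 FPKM (adjusted p = 2.50e-05) and Txnip from 930 ± 43.6 to 502 ± 71.1 (adjusted p = 0.000719). Mlxip, a glucose-sensing transcription factor, fell from 6.68 to 5.31 FPKM (adjusted p = 0.00965).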
